A study of Rattus norvegicus with 6 samples.

Results

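The genes described here are 9 that encode NRF2 itself, its relatives and partners on DNA, the proteins that hold it in check, and feedback genes that answer to it: Nfe2l2, Nfe2l1, Bach1, Maff, Mafg, Mafk, Keap1, Sqstm1 and Osgin1. They were chosen by name, with earlier results of these data known. Their probes were found through the transcript accession that the scanner files give for each probe, looked up in the rat RefSeq gene table. All 9 were found, on 19 of the 27460 probes that received 1 gene symbol, which cover 15284 genes. The samples are total RNA of kidney cortex, taken from male Sprague-Dawley rats bought at 5 weeks of age and fed a basal diet, and it was measured on 1-colour Agilent arrays with 1 animal per array. One group of 3 received water for 4 weeks. The other group of 3 received nitrilotriacetic acid trisodium monohydrate (NTA), a metal chelator, at 1000 mg per kg per day for the same time. As a model this is 1 sex, 1 dose and 1 time point, and the cortex was taken whole. More cells of a type and more RNA per cell therefore cannot be told apart.

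NRF2, the product of Nfe2l2, is a transcription factor of the cap'n'collar family that switches on genes of glutathione synthesis, quinone reduction and conjugation. In an unstressed cell KEAP1 hands it to a CUL3 ubiquitin ligase and it is degraded, and when electrophiles or oxidants modify KEAP1 the protein accumulates, pairs with a small MAF protein and binds the antioxidant response element. BACH1 competes for the same elements as a repressor, and in the proximal tubule this pathway governs much of the defence against reactive metabolites. Control of NRF2 thus lies largely at the level of the protein, which arrays do not measure.

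On each array 68.4% to 73.5% of 61657 probes passed as well above background, and the 75th percentile of signal was 1296.0 to 1316.4 on water arrays and 1132.6 to 1220.2 on NTA arrays. All 10 proximal tubule markers, from Lrp2 to Miox, and all 7 podocyte markers passed the filter on dim probes. Water 1 and NTA 2 shared a slide and a scan day, and the other 4 arrays were scanned on the other day. Of those 4, water 2 and water 3 lay on 1 slide and NTA 1 and NTA 3 on another. Slide and treatment cannot be told apart among them. Levels below are log2 signal relative to the array's 75th percentile, differences are NTA minus water on that log2 scale, SE is the error of the limma model and SD the spread over the 3 arrays of a group.

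The regulators differed among themselves. The transcript of NRF2 itself and of Mafk lay within 0.05 of no difference, while those of the repressor Bach1, the small MAF genes Maff and Mafg, the inhibitor Keap1, the adaptor Sqstm1 and the feedback gene Osgin1 stood higher in all 3 NTA animals than in any water animal. The differences of the latter ran from 0.25 for Sqstm1 to 1.21 for Osgin1. By limma 0 of the 9 passed an adjusted p under 0.05 over the 11965 genes tested, where 9 genes or 0.0752% passed as higher and 0% as lower. At an unadjusted p under 0.05, 6 of the 9 were higher and 0 lower, against 7.76% and 4.51% of all genes (12.3% in either direction). The groups did not overlap for 6 of the 9, all higher in NTA, against 13.0% of all genes in that direction and 7.25% in the other (20.2% in either). Differences were above 0 for 7 of the 9, against 56.4% of all genes. Over the 9 genes the median difference was 0.26, against 0.02 over all genes tested. The 9 were named with earlier results of these data known, so these counts and this median are no independent evidence. With the mean of all probes of a gene, 5 of the 9 had groups that did not overlap, and Sqstm1 stood at 0.04 (limma adjusted p = 0.844).

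**Figure D1:**
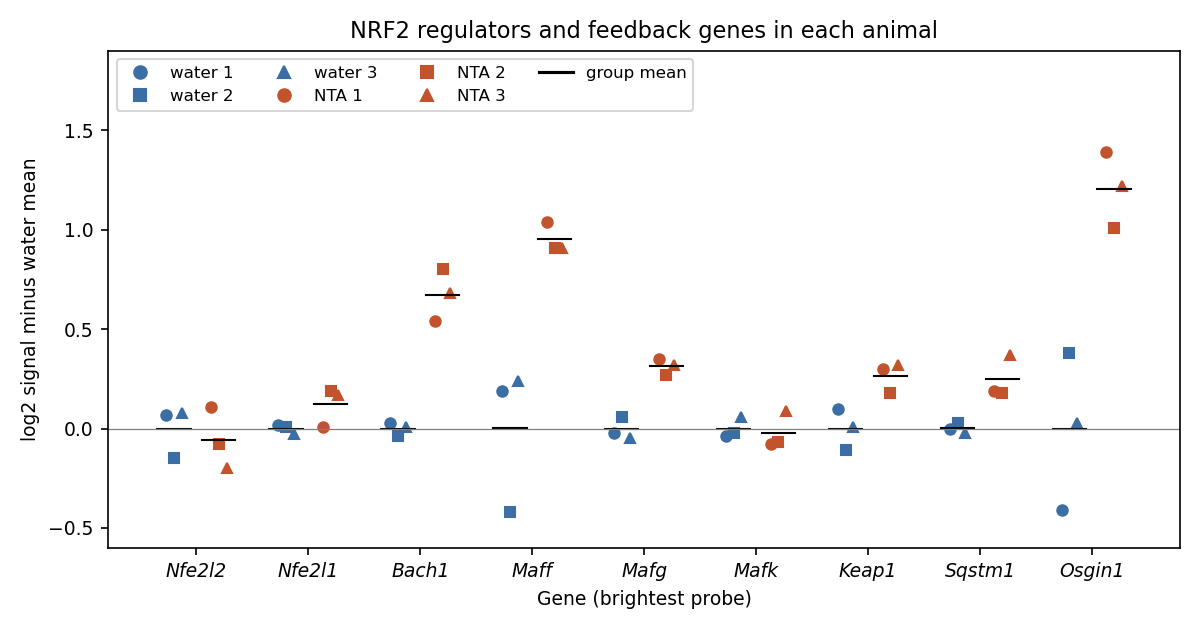
Log2 signal of the brightest probe of each gene minus its water mean (vertical axis) for the 9 genes (horizontal axis), 1 point per animal and black lines for group means. Nfe2l2 and Mafk overlap between groups, while the 3 NTA animals lie above the 3 water animals for Bach1, Maff, Mafg, Keap1, Sqstm1 and Osgin1.

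Among the activators, Nfe2l2 read 3.76, 3.55 and 3.77 in water and 3.81, 3.61 and 3.50 in NTA. The groups overlapped fully, with the highest and the lowest value both in NTA. The difference was -0.05 ± 0.11 (SE, limma adjusted p = 0.875), and its 95% interval of -0.32 to 0.21 holds changes between 0.80-fold and 1.16-fold. The second Nfe2l2 probe differed by -0.11 ± 0.12. Nfe2l1, which encodes NRF1, the relative that restores proteasome subunits when the proteasome is blocked, read 0.85, 0.84 and 0.79 in water and 0.84, 1.02 and 1.00 in NTA. Of these, NTA 2 and NTA 3 lay above all water animals and NTA 1 among them (difference 0.12 ± 0.07, SE, limma adjusted p = 0.54).

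Bach1, the heme-binding repressor that occupies antioxidant response elements until heme or oxidants displace it, gave the smallest p of the 9 genes, 23rd of all genes tested. It read -1.96, -2.03 and -1.97 in water and -1.45, -1.19 and -1.31 in NTA. The water animals lay close together, below the lowest NTA animal, and the difference was 0.67 ± 0.08, or 1.59-fold (95% interval 1.38 to 1.83, limma adjusted p = 0.0937). With normexp background correction, an alternative, it passed at 0.68 (limma adjusted p = 0.048, the lowest of its alternatives, which reached 0.361). The 3 Bach1 probes, all aimed at 1 transcript, gave differences of 0.67, 0.82 and 0.83. In a limma fit over 20739 probes of named genes, where 0.140% were called higher and 0.00482% lower, Bach1 rose by the probe that stood at 0.82 ± 0.07 (adjusted p = 0.0341). That probe read -3.25, -3.21 and -3.18 in water and -2.48, -2.32 and -2.40 in NTA. It was 1 of 19 probes of the 9 genes, and its call was lost without any 1 of the 6 arrays (0.77 to 0.86). The 2 ways of modelling the slide disagreed: the call was lost with slide as a fixed block (0.94) and kept with slide as a random block (adjusted p = 0.0305). The fixed block compares the groups only within the 1 slide that held both, with 1 animal each. The call was also lost with scan day (adjusted p = 0.0764) or replicate (0.233) as a block, under normexp (0.0523) and with no filter on dim probes (0.112). The lowest adjusted p among its alternatives was 0.03.

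The small MAF proteins lack an activation domain and serve as DNA-binding partners of NRF2, NRF1 and BACH1 alike. Maff read -4.33, -4.94 and -4.28 in water and -3.48, -3.61 and -3.61 in NTA. Its 3 NTA values lay close together and above a wider spread in water (SD 0.37 against 0.07), at a difference of 0.95 ± 0.19 or 1.94-fold (95% interval 1.41 to 2.66, limma adjusted p = 0.216). The other Maff probe cleared background in all 3 NTA animals but in no water animal. It thus passed the filter only through NTA, so no p is given for it and it is no separate support. Its measured means were -6.30 in water and -5.08 in NTA, and with water set at a floor it was 2.03-fold higher in NTA. That floor takes for each water array the larger of this probe's signal and the dimmest signal that still cleared background. The fold is an estimate without an error and no strict lower bound. Under normexp the Maff difference shrank to 0.47.

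Mafg differed less but more evenly. It read 1.70, 1.78 and 1.67 in water and 2.06, 1.99 and 2.04 in NTA, so that the groups stood clear of each other with SDs of 0.06 and 0.04 (difference 0.32 ± 0.06, 1.24-fold, limma adjusted p = 0.211). Its 3 probes gave 0.28, 0.30 and 0.32. Mafk, the third gene of the family, read -1.83, -1.81 and -1.73 in water and -1.87, -1.86 and -1.70 in NTA. The groups overlapped, and the 95% interval of its difference (-0.02 ± 0.07, limma adjusted p = 0.947) ran from -0.20 to 0.16.

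Keap1, the sensor that delivers NRF2 to its ligase, read 0.50, 0.29 and 0.41 in water and 0.70, 0.58 and 0.72 in NTA. Every NTA animal was above every water animal, by as little as 0.08 between NTA 2 and water 1 (difference 0.26 ± 0.08, 1.20-fold, limma adjusted p = 0.304). Those 2 animals are the pair on the shared slide, so Keap1 differed by 0.08 on that slide and by 0.36 among the 4 arrays of the other day. Each group had a slide of its own on that other day, so the latter value is also a difference between slides. For Bach1 the same 2 values were 0.77 and 0.62, for Maff 0.72 and 1.07, for Mafg 0.29 and 0.33, and for Osgin1 1.42 and 1.10. These were of 1 sign on both days, which groups that do not overlap already fix.

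Sqstm1 encodes p62, the autophagy receptor that binds KEAP1 and draws it into autophagosomes, and is itself a target of NRF2. Its brightest probe read 4.57, 4.60 and 4.55 in water and 4.76, 4.75 and 4.94 in NTA. The difference was 0.25 ± 0.07, or 1.19-fold (limma adjusted p = 0.304), with NTA 3 the highest. The 5 Sqstm1 probes differed in sign. The 3 aimed at the transcript NM_175843 stood higher in NTA, at 0.25, 0.26 and 0.16, with groups that did not overlap. The 2 aimed at NM_181550, which the gene table lists under the same gene, stood at -0.08 and -0.38. For the latter of these, at 2.83, 2.69 and 3.01 in water and 2.38, 2.46 and 2.55 in NTA, all 3 NTA animals lay below all water animals (limma adjusted p = 0.286 over probes). Groups did not overlap for 11.6% of probes in the higher direction and 8.32% in the lower.

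Averaged by transcript, the NM_181550 probes minus the NM_175843 probes gave -1.42, -1.63 and -1.36 in the water animals and -1.95, -1.85 and -1.96 in the NTA animals. The group means were apart by -0.45. This comparison was chosen after the signs of the probes had been seen, so it restates them and has no test. The places of the probes in the gene were not analysed here.

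**Figure D2:**
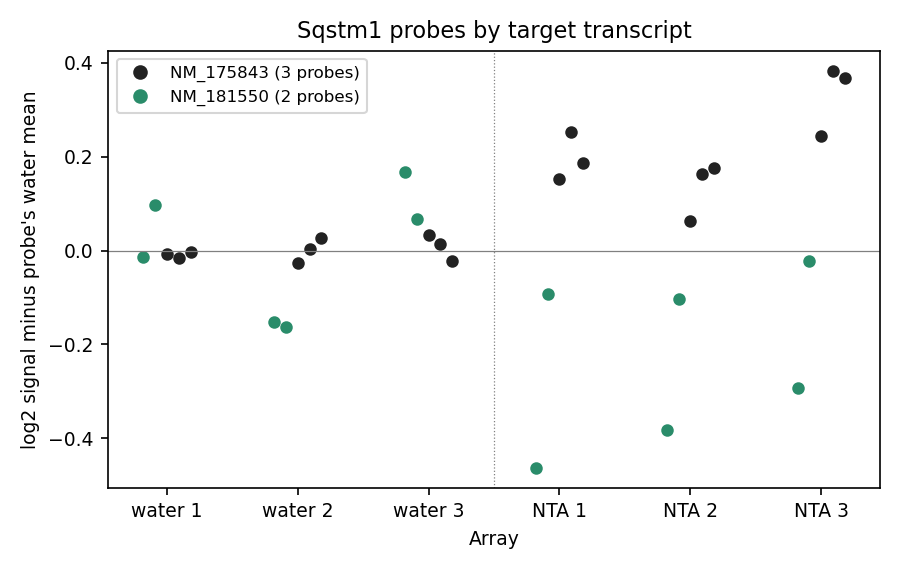
Each Sqstm1 probe's log2 signal minus its own water mean (vertical axis) on the 6 arrays (horizontal axis), coloured by target transcript. In NTA the 3 NM_175843 probes lie above 0 and the 2 NM_181550 probes below, at average differences of 0.22 and -0.23.

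Osgin1, which encodes a growth inhibitor induced by oxidative stress and is a target of NRF2, showed the widest difference of the 9 genes. It read 0.94, 1.73 and 1.38 in water and 2.74, 2.36 and 2.56 in NTA. All NTA animals lay above all water animals, and water 1 was the lowest. The difference was 1.21 ± 0.21, or 2.31-fold (95% interval 1.60 to 3.33, limma adjusted p = 0.191), on 1 probe. Of the 9 genes Osgin1, Maff and Bach1 differed by 0.58 or more, the log2 of a 1.5-fold change, which 3.28% of all genes did.

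**Figure D3:**
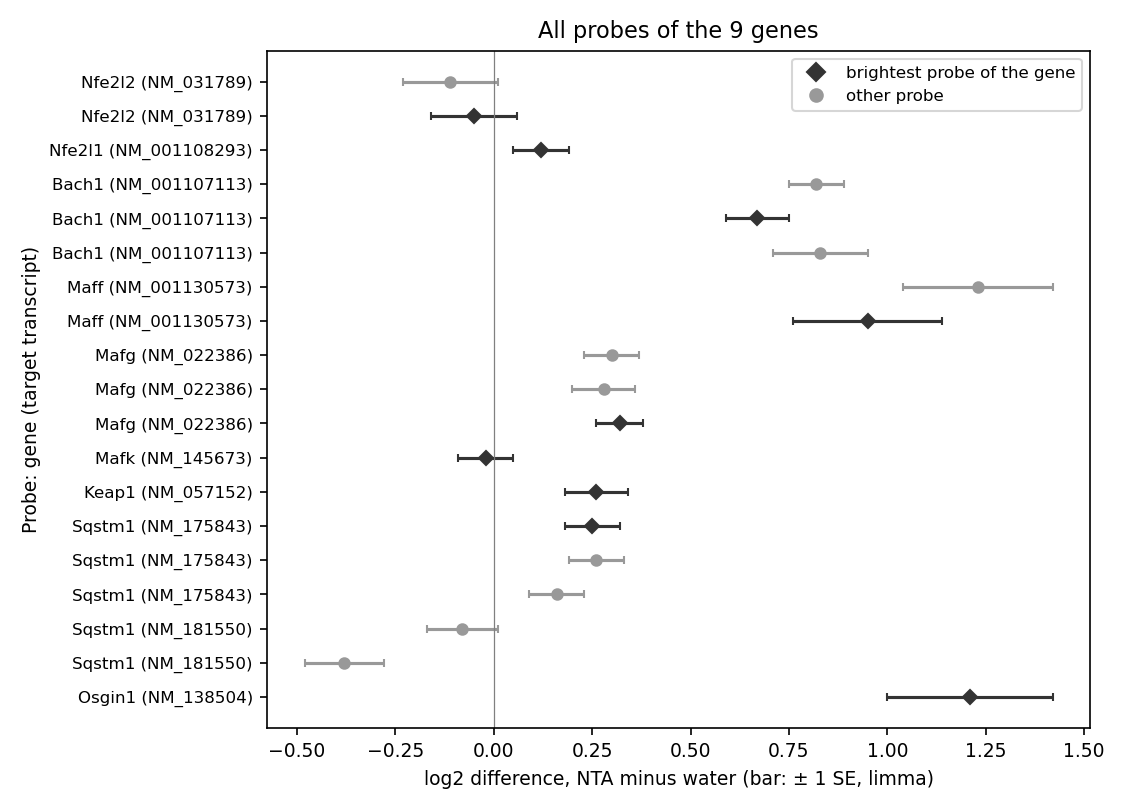
Log2 difference between NTA and water (horizontal axis, bars ± 1 SE from limma) for all 19 probes of the 9 genes, with the transcript each probe targets. The dimmer Maff probe, not well above background in water, passed the filter only through NTA and is drawn at its measured difference. Probes of Bach1 and Mafg lie together within each gene, while those of Sqstm1 fall on both sides of 0.

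The targets of NRF2 were set beside the regulators in each animal. A list of 44 genes, of which 40 were tested, stood on average 0.80, 1.00 and 0.98 above the water mean in NTA 1, 2 and 3, while the water animals were within 0.01 of it. Of the 40, 38 were above 0 and 34 had NTA animals all above water animals, against 56.4% and 13.0% of all genes. The list's median was 0.72, and 4 of the 40 rose by limma and 0 fell. These were Gstp1, the pi-class glutathione transferase (2.37 ± 0.21, adjusted p = 0.0495), Pir, which encodes pirin (1.93 ± 0.15, adjusted p = 0.0472), Ephx1, microsomal epoxide hydrolase (1.26 ± 0.10, adjusted p = 0.0472), and Akr7a3, an aldehyde reductase (1.24 ± 0.11, adjusted p = 0.0495). Earlier results of these data, among them that these 4 pass, were known when the list was written. The counts of 38, 34 and 4 of the 40 are therefore no independent evidence. Where a probe above background on all 6 arrays was required, 39 targets were tested, with a median of 0.71. The counts and averages above thus include a target that passed the filter through only 1 group. The calls lie close to the threshold: 0 genes of all those tested were called higher under quantile normalization, with the percentile over detected probes, with no filter on dim probes, or with scan day or replicate as a block. Without water 1, water 2, water 3, NTA 1 or NTA 3 the count was also 0, and without NTA 2 it was 4.

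Of 6 targets named whatever their values, Nqo1, the quinone reductase, differed by 2.71 ± 0.27 and Srxn1, which repairs oxidised peroxiredoxins, by 1.63 ± 0.26. Gclc and Gclm, the catalytic and modifier subunits of glutamate-cysteine ligase, differed by 0.80 ± 0.27 and 0.92 ± 0.29. Txnrd1, the cytosolic thioredoxin reductase, differed by 0.47 ± 0.14 and heme oxygenase Hmox1 by 1.11 ± 0.14. None of these 6 passed (limma adjusted p from 0.0648 to 0.349), and in each of them every NTA animal was above every water animal.

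The order of the NTA animals was not shared across these transcripts. The target average was lowest in NTA 1, and so was Bach1, at 0.54 above its water mean against 0.80 and 0.68 in NTA 2 and 3. Osgin1 and Maff were highest in NTA 1, at 1.39 and 1.04 above theirs. As levels rather than distances from the water mean, Nqo1 was lowest in NTA 2, at -0.01 against 0.89 and 0.80 (water mean -2.15). Hmox1, a gene that BACH1 represses, was highest in NTA 2, at levels of -0.16 against -0.53 and -0.64 (water mean -1.55). Bach1 was also highest in NTA 2. Of the NTA animals only NTA 2 lay on that slide and scan day, so its place in the order is also a difference between slides. With 3 animals in a group no relation between them was tested, and the 6 arrays fall into 2 groups, so no correlation is given.

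Other genes of the pathway were read from lists covering the rest of the machinery. Of 11 genes of ligases, kinases and other factors that act on the turnover of NRF2, 5 were above 0 and the median was -0.03. By limma 0 passed in either direction, and 2 were higher at an unadjusted p under 0.05. The brightest were Skp1, a core subunit of SCF ligases (0.20 ± 0.06), and Rbx1, the RING subunit that works with CUL3 (0.08 ± 0.07). Proteins that bind KEAP1 in competition with NRF2 or act on the complex gave a median of -0.03 over 7 genes, with Cdkn1a at 0.16 and Dpp3 at 0.08. Coactivators and nuclear receptors gave -0.01 over 5 genes, with Smarca4 at 0.08 and Crebbp at -0.11. In both of these lists 0 genes passed and 0 had an unadjusted p under 0.05.

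The remaining cap'n'collar and MAF genes gave a median of -0.18 over 5 genes, of which 0 passed by limma and 1 was lower at an unadjusted p under 0.05. The median was -0.55 with slide as a fixed block, -0.08 under normexp, and -0.07, -0.08 and -0.09 without water 1, water 2 and NTA 3. The gene at an unadjusted p under 0.05 was Maf, a large MAF with its own activation domain. It read 2.23, 2.71 and 2.33 in water and 2.07, 1.68 and 1.81 in NTA, with every NTA animal below every water animal (-0.57 ± 0.16, limma adjusted p = 0.294). The next brightest of the list, Bach2, the lymphoid relative of Bach1, differed by -0.18.

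For NRF1, processing factors such as Vcp, the ATPase that extracts it from the endoplasmic reticulum (-0.03 ± 0.06), and Ngly1, the glycanase that edits it (-0.04), gave a median of -0.01 over 4 genes. Of these 0 passed by limma and 1 was higher at an unadjusted p under 0.05, Syvn1, the endoplasmic reticulum ubiquitin ligase that is also in the degradation list (0.21 ± 0.06, limma adjusted p = 0.282), with every NTA animal above every water animal. Proteasome subunits, its best known targets, gave 0.04 over 31 genes, between -0.07 and 0.19. Of these 22 were above 0, 0 passed, 1 was higher at an unadjusted p under 0.05, and 8 had NTA animals all above water animals, where 7.76% and 13.0% of all genes did so. The highest was Pomp, the assembly chaperone, at 0.19, and Psmc5, an ATPase of the base, was at 0.00. Under quantile normalization the proteasome median was -0.01, so its sign is not given here as a direction.

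Partners of p62 in autophagy gave a median of 0.00 over 14 genes, between -0.27 and 0.16, with 0 passing and 0 at an unadjusted p under 0.05. Gabarapl1 and Gabarap, which tether receptors to the autophagosome membrane, were at 0.01 and 0.02. All 6 genes of heme and iron that BACH1 represses were above 0, against 56.4% of all genes. Of them 4 were higher at an unadjusted p under 0.05, against 7.76%, and 0 passed by limma. Their median was 0.31, with the ferritin chains Ftl1 and Fth1 at 0.19 ± 0.06 and 0.17 ± 0.07 and Hmox1 the highest. That list shares Hmox1, Ftl1, Fth1 and Blvrb with the NRF2 targets. It too was written with earlier results of these data known, so its counts are no independent evidence.

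**Figure D4:**
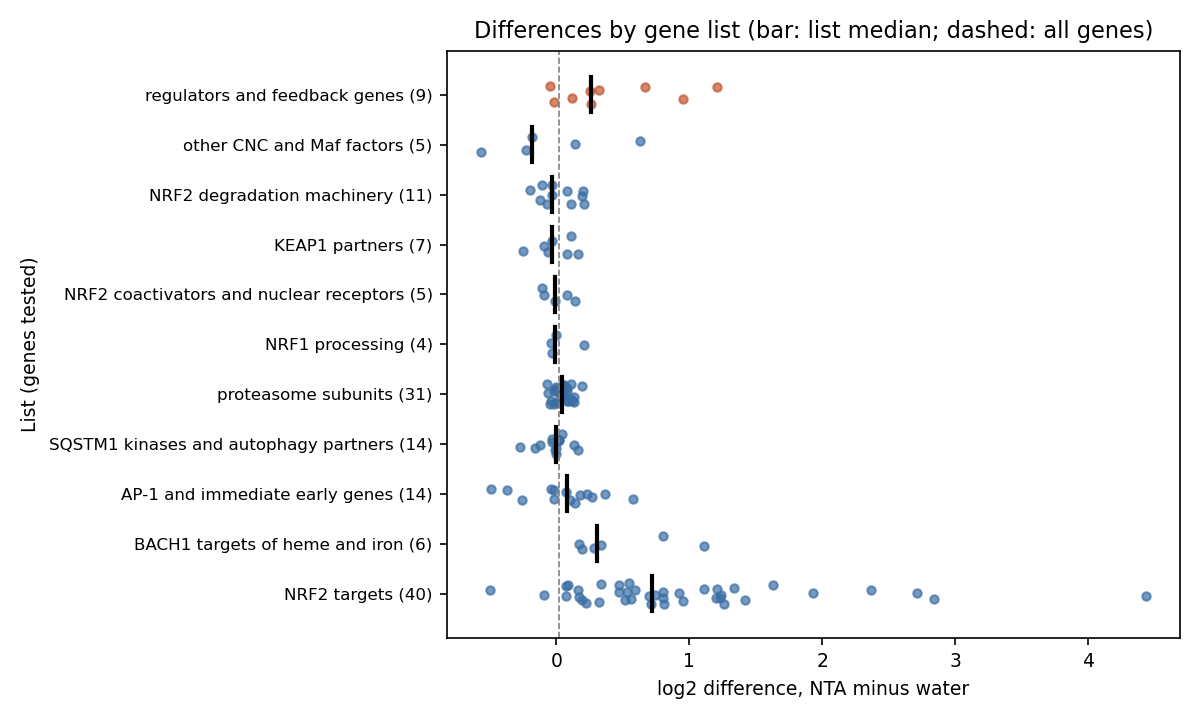
Log2 difference between NTA and water (horizontal axis) for each tested gene, by list (vertical axis, number of genes in brackets), with bars for list medians and a dashed line for the median of all genes, 0.02. NRF2 targets centre on 0.72 and the 9 regulators and feedback genes on 0.26, while degradation, partner, processing, proteasome and autophagy lists centre between -0.03 and 0.04.

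Maff also belongs to the genes that respond within minutes to many stimuli, so immediate early genes were read beside it. Of 14, 0 passed by limma and 1 was higher at an unadjusted p under 0.05, Fosl2, an AP-1 subunit, at 0.58 ± 0.11. The median was 0.08, and the brightest, Jund and Jun, were at 0.10 and -0.02. Of 7 markers of injured tubules 6 were above 0 and 0 passed by limma, with 1 higher at an unadjusted p under 0.05, and their mean was -0.19 to 0.13 from the water mean in water animals and 0.25 to 0.67 above it in NTA animals. Havcr1 and Lcn2 differed by 0.58 ± 0.53 and 1.21 ± 0.87, with overlapping groups. Clu, which encodes the chaperone clusterin, differed by 1.16 ± 0.41 (limma adjusted p = 0.357), with every NTA animal above every water animal, and Vcam1 by -0.23, with every NTA animal below. Leukocyte markers averaged -0.12 to 0.15 in water and 0.04 to 0.49 in NTA, with 8 of 11 above 0 and a median difference of 0.14. Highest among them were S100a8 and S100a9, at 1.10 ± 0.41 and 0.99 ± 0.44 (limma adjusted p = 0.38 and 0.442), with overlapping groups for S100a9. The lowest leukocyte marker stood at -0.10. The median of this list was -0.16 on the shared slide and 0.28 among the arrays of the other day. Proximal tubule markers averaged -0.04 to 0.02 and -0.17 to 0.02, with 4 of 10 above 0. Above 0 were also 0 of 7 podocyte, 2 of 6 endothelial, 1 of 3 distal tubule, 3 of 7 collecting duct, 5 of 7 fibroblast and smooth muscle and 2 of 2 erythroid markers. Markers of the inner medulla and papilla averaged -0.14 to 0.12 in water and 0.27 to 0.54 in NTA, with 2 of 3 above 0. Cryab, a small heat shock protein gene, was the one whose groups did not overlap (1.26 ± 0.28, limma adjusted p = 0.226). The rest of that list, Aqp4 and Slc14a2, stood at 0.10 and -0.20, with overlapping groups. Markers of the thick ascending limb averaged -0.15 to 0.09 and 0.18 to 0.73, with 3 of 4 above 0. There Ppp1r1b differed by 1.31 ± 0.53 (limma adjusted p = 0.404) and was the one without overlap, while Umod, which encodes uromodulin, differed by 0.13. None of these markers passed. The part of these cell types in the values of the 9 genes was not tested.

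Genes most like Osgin1, Maff and Bach1 over the 6 arrays were found by the root mean square difference between log2 profiles, each centred on its own mean. Nearest to Osgin1 were Arg2, mitochondrial arginase (0.14), Reep6 (0.15) and Slc38a3, a glutamine transporter (0.15). Nearest to Maff were Smoc2 (0.11), Gltpd2 (0.14) and Fut9 (0.16). Nearest to Bach1 were Entpd5, a nucleotidase of the endoplasmic reticulum (0.07), Gsta1, an alpha-class glutathione transferase (0.08), and Ugp2, which makes UDP-glucose (0.09). The differences of these 9 genes ran from 0.53 for Ugp2 to 1.32 for Slc38a3, and every NTA animal lay above every water animal in each, as the choice by likeness to genes without overlap already sets.

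Promoter sequences of the 9 genes were read from RefSeq (assembly GRCr8, 250 bases before to 50 after each start), because NRF2, NRF1 and BACH1 act through a short element there. All 9 genes had at least 1 window, 11 in all. The core TGACNNNGC, searched on both strands, was found for Nfe2l2 and Mafk. It lay in 2 of the 11 windows, against 12.1% of all 33469 promoters, and so few windows do not tell these shares apart. No relation between the core and the differences was tested. The core was found for 11 of 37 NRF2 targets with a window (27.5% of their 40 windows), among them Gclm and Txnrd1. The stretches below show the match in capitals, on the gene's strand, with its place in GRCr8.
Nfe2l2, chr3:81028950-81028971, minus strand, 39 bases into the transcript: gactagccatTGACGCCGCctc
Mafk, chr12:19959215-19959243, minus strand, 41 bases before the start: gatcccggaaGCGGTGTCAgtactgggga
Gclm, chr2:213031953-213031981, plus strand, 172 bases before the start: tgcggtttctGCTTAGTCAttgtcttcca
Txnrd1, chr7:22755964-22755992, minus strand, 78 bases before the start: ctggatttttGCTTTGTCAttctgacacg

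The wider core TGANNNNGC, which includes every match of the first, was found for 6 of the 9 genes. It lay in 8 of their 11 windows, against 40.5% of all promoters and 57.5% of the windows of NRF2 targets. More than 1 of those 8 windows belongs to Nfe2l1, so the genes do not count equally there. The motif TGANTCA, the centre of elements bound by BACH1, NFE2 and AP-1, was added after the values had been seen. It was found in 7.33% of all promoters, in 20% of the windows of NRF2 targets and in 1 of the 11 windows of the 9 genes. That window is of Bach1, shown here with the match in capitals. Beside it is the match 5 bases before the start of Srxn1, where the motif overlaps the wider core.
Bach1, chr11:40425740-40425766, plus strand, 30 bases into the transcript: gcggagggagTGAGTCAcctgaccgcc
Srxn1, chr3:161064797-161064823, plus strand: aaactcacccTGAGTCAgcgacccgac

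The 250 bases before the start are printed for Osgin1, Maff and Bach1, the genes with the widest differences. Matches of TGANNNNGC are in capitals. Osgin1 held 1, on the opposite strand, and the other two held none in this stretch.
Osgin1, chr19:64393651-64393900, plus strand: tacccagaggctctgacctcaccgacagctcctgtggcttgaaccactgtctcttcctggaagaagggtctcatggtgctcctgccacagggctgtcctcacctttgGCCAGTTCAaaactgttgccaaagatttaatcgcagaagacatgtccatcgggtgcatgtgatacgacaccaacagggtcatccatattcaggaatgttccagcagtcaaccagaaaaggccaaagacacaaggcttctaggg
Maff, chr7:112792537-112792786, plus strand: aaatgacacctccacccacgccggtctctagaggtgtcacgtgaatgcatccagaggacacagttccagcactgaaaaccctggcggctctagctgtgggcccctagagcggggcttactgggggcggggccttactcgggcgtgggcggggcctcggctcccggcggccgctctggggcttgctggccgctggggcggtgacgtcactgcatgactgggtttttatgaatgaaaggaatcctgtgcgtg
Bach1, chr11:40425471-40425720, plus strand: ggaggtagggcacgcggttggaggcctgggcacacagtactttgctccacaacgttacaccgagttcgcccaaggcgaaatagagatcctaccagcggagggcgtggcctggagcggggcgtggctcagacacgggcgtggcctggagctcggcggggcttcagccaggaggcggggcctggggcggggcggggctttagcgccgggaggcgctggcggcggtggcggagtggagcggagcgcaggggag
GC made up 51.6% of the Osgin1 stretch, 63.6% of that of Maff and 71.2% of that of Bach1, against a median of 51.2% over all promoters. A match is a description of these letters and no evidence of binding, and its lack says nothing of elements elsewhere.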

How the data were processed

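Per the file headers, spots were quantified by Agilent Feature Extraction 10.7.1.1 (10.7 per the submitters' processing notes). The intensity used is the background-corrected processed signal per spot, which the authors deposited as linear values without scaling between arrays. The authors also deposited a ratio table, whose values equalled processed signal over 1 constant per array, within 0.072% of its 75th percentile, with no centring of genes. Deposited spot flags (other values, 0 or 1) served as filters.

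Values are log2 signal minus the array's 75th percentile, taken over 61657 non-control probes. Control spots and outlier spots were left out. Probes entered the test if well above background in all 3 animals of either group, and the probe with the highest mean stood for its gene. Probes were named through RefSeq (GRCr8) accessions without version. limma 3.58.1 (R 4.3.3, lmFit and eBayes) compared NTA with water over 11965 genes, two-sided, with Benjamini-Hochberg adjustment over all of them. The fit was tested on simulated data.

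The members and lists were chosen with earlier results of these data known. Named were the 9 genes, 6 targets whatever their values, up to 4 called members per list filled up to 2 by brightness, and the 3 nearest profiles of up to 3 genes. Fosl2, Syvn1, Blvrb, Havcr1, Lcn2, Clu, Vcam1, S100a8, S100a9, Cryab, Aqp4, Slc14a2, Ppp1r1b, Umod, Lrp2 and Miox were named outside that rule, after their values had been seen. Normexp used median signals, since mean signals are not in the files. The series calls the animals biological replicates, and 3 arrays per group limit the precision.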

Additional observations from a re-analysis of the deposited data

How the results depend on the processing

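In 18 alternatives at the gene level, Nfe2l1, Keap1, Maff, Mafg, Sqstm1 and Osgin1 kept their sign and did not pass, with ranges of 0.09 to 0.18, 0.08 to 0.31, 0.47 to 1.09, 0.29 to 0.35, 0.04 to 0.28 and 1.00 to 1.42. Bach1 (0.61 to 0.77) passed under normexp at 0.68, so 1 of the 9 genes was called there. Mafk turned to 0.01 without water 3, NTA 1 or NTA 2, and Nfe2l2 to 0.02 without NTA 3, none of them called; without 1 array they ranged from -0.07 to 0.01 and from -0.14 to 0.02. For the Bach1 probe called in the probe fit, 0 of the 19 probes were called with no filter on dim probes, with slide as a fixed block, with scan day or replicate block, or without any 1 array (0 in each), while 1 was called with slide as a random block.

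Genes called higher numbered 9, against 0 under quantile normalization, the percentile over detected probes, no filter, and scan day or replicate block, 0 to 4 without 1 array, 4 with slide as a fixed block, 20 under normexp and 32 with trend and robust. Genes called lower numbered 6 with trend and robust and 1 with slide as a fixed block. Of genes at an unadjusted p under 0.05, 63.2% were higher, against 52.2% under quantile normalization and 54.6% with the percentile over detected probes. The NRF2 target median ranged from 0.65 to 0.78. A core longer by 1 base was found for 0 of the 9 promoters in place of 2.

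Replicate numbers did not pair the animals: deviations of same-numbered arrays correlated at 0.07, -0.09 and 0.04 across genes, which are not independent replicates. With the replicate block, Bach1 stayed at 0.67 (adjusted p = 0.361) and Osgin1 at 1.21 (adjusted p = 0.418). Only the shared slide compares groups within a slide, with 1 animal each. Signal over background limits the dimmer Maff probe, which was not well above background on any water array.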
